A study of Mus musculus with 12 samples.

Results

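Grafts of mouse pancreatic islets taken 60 days after transplantation into the inguinal subcutaneous fat were compared with isolated islets, gene by gene and gene family by gene family. All 4 libraries titled as day 60 grafts and all 4 titled as isolated islets were used, 8 of the 12 libraries of the series. The other 4 came from grafts at day 120 and entered only one alternative fit. All samples were labelled as mouse strain C57BL/6 with islet as the tissue, and total RNA was sequenced after low-input cDNA synthesis. The labels give no treatment, age or sex, and do not say whether each library came from its own animal or islet preparation. A graft library holds RNA of islet cells together with that of whatever fat, vessel and blood cells were dissected with them, and in such bulk RNA fewer cells of a type and less RNA per cell cannot be told apart.

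Islets are small clusters of hormone-secreting epithelial cells set in the digestive tissue of the pancreas. Their cells touch one another through cadherins and tight junction proteins, and their work is to make and export large amounts of peptide, which loads the protein folding system of the endoplasmic reticulum. Freshly isolated islets have been separated from their vessels and nerves by enzyme digestion, whereas a graft in fat is supplied by new vessels and surrounded by connective tissue, fat cells and macrophages. Genes of digestive enzymes, fat storage, collagen, macrophages and haemoglobin are the classic differences between such samples, and the families described here are mostly others. They form 71 lists with 2537 genes in the table, of which 1772 were tested, 475 were higher and 166 lower.

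Values are FPKM, fragments scaled by gene length and by the number of mapped fragments, and 4 values in a row follow replicates 1 to 4. A log2 change is the difference in mean log2(FPKM + 1), grafts minus islets, which understates the change of low genes. Adjusted p-values come from limma and measure only the spread between these libraries, and a gene is called at an adjusted p under 0.05. Of 23234 genes in the table, 12836 reached 1 FPKM in 4 or more of the 8 libraries and were tested. A gene that reached it in one group alone had to differ, so its change is given as a description. In grafts 2975 genes were higher, 23.2% of those tested, and 1145 were lower, 8.92%. Without day 60 graft replicate 1, 3700 were higher (28.8%) and 1244 lower (9.69%), and 2821 of the 2975 rises and 1077 of the 1145 falls were called both times. Over every gene tested the median log2 change came to 0.25. It was 0.11 after upper-quartile scaling, -0.10 after scaling to the sum without hormone and acinar genes, -0.04 after quantile normalization and 0.49 after scaling to 14 endocrine reference genes. The share of calls that were rises, 72.2% as deposited, was 60.1%, 43.6%, 45.0% and 74.5% under these scalings in that order, and the last of them called 435 genes higher and 149 lower.

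Both groups had a library that stood apart. Across the tested genes, Pearson's r of log2(FPKM + 1) between libraries was 0.902 to 0.976 among isolated islets, 0.797 to 0.939 among grafts and 0.586 to 0.851 between the groups. On the first principal component, which held 66.3% of the variance, isolated islet replicate 1 lay at -32.9 and the other islets between -75.7 and -71.1. Graft replicate 1 lay at 106.5 on it, against 37.7 to 59.5 for the other grafts. The 31 fibroblast and matrix markers summed to 124 to 161 FPKM in islets, to 11100.2 in graft 1 and to 1489 to 2570.5 in the other grafts. The 30 adipocyte markers summed to 367 to 436, 18538 and 848 to 6050.2 in that order, the 26 macrophage markers to 100.3 to 156, 6942 and 835 to 1802, and the 6 red blood cell markers to 16.6 to 45.4, 28864 and 1855 to 2747. Of these 4 lists 30 of 31, 20 of 27, 23 of 24 and 5 of 5 tested members were called higher, and none lower. The 44 acinar markers summed to 10978 to 122709 FPKM in islets and to 29.8 to 55.5 in grafts, with Amy2a5 at 0 in every graft, and the 22 islet endocrine markers to 55662 to 66535 in islets and 41918 to 89346 in grafts. Markers of the labelled tissue, islet, were thus present in both groups, and the part of these markers' cells in the changes below was not tested unless a value is given.

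**Figure D1:**
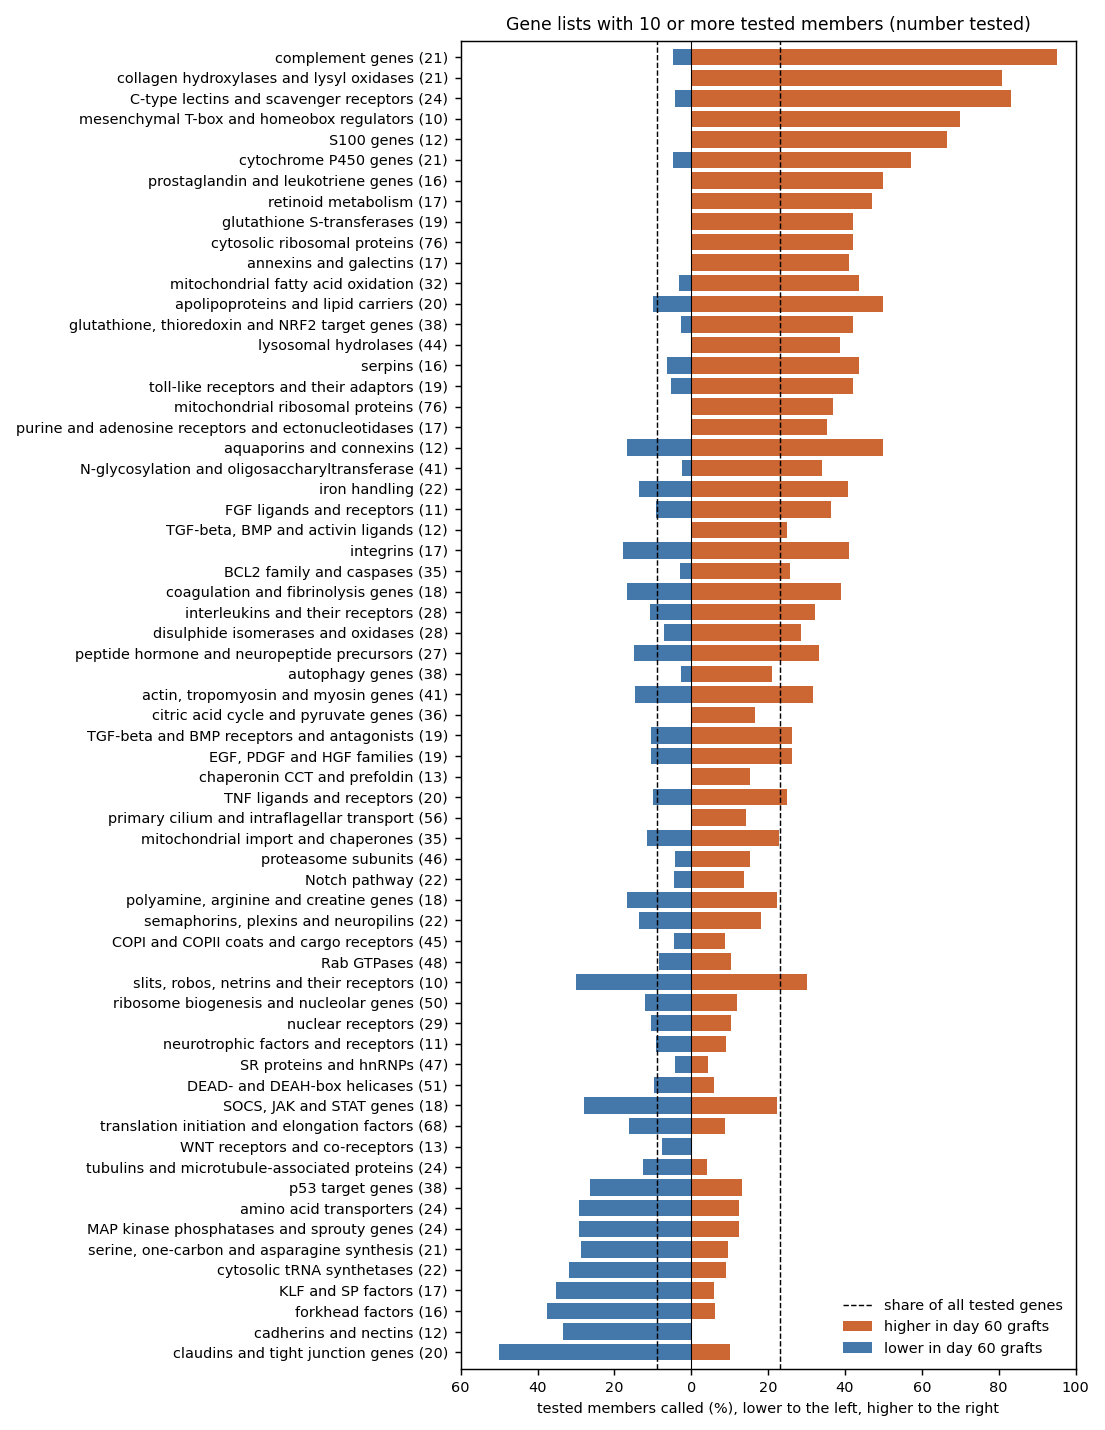
Share of tested members called higher (orange, to the right) or lower (blue, to the left) in day 60 grafts for each gene list with 10 or more tested members, with the number tested in brackets. The dashed lines mark the 23.2% higher and 8.92% lower of all tested genes; complement genes stand at the top with 20 of 21 higher and claudins and tight junction genes at the bottom with 10 of 20 lower.

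Outside the markers and unnamed transcripts, the 15 largest rises with groups that did not overlap were led by genes of secreted and inflammatory proteins. The chemokine gene Ccl8 stood at 0, 0, 0.312 and 0 FPKM in isolated islets and 1289, 79.8, 188 and 20.7 FPKM in day 60 grafts. It was the largest of these rises and passed the filter through the grafts alone, and graft replicate 1 lay far above the other grafts. Inmt, an amine N-methyltransferase gene, stood at 0.299, 0.373, 0.468 and 0.534 FPKM in isolated islets and 225, 89.2, 56.1 and 59.0 FPKM in day 60 grafts, with grafts 2 to 4 close together. It passed the filter through the grafts alone, and its log2 change was 6.01. The acute-phase haemoglobin scavenger gene Hp, the interferon-induced gene Ifi27l2a and the tetranectin gene Clec3b rose by 6.36, 6.35 and 5.77. Without graft 1 these rises were 5.47, 5.44 and 4.98, and that of Ccl8 was 6.01 against 7.07. The list went on with Retnla, Ccl6, Serpinf1, Pf4, Sfrp2, Lgals1, Mmp3, G0s2, S100a8 and Rarres2, with log2 changes from 5.74 down to 4.72. All were still called without graft 1. S100a8 passed the filter through the grafts alone. For it, and for any other gene of the list that did so, the kept call is a description.

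The 15 largest falls differed in the order of their islet libraries. The kallikrein gene Klk1b4 stood at 6.58, 67.5, 20.9 and 98.1 FPKM in isolated islets and 0.133, 0.118, 0 and 0 FPKM in day 60 grafts. The disulphide isomerase gene Pdia2 stood at 14.7, 119.7, 33.9 and 161 FPKM in isolated islets and 0.167, 1.98, 0.872 and 1.23 FPKM in day 60 grafts. Erp27, of the same protein family, stood at 3.81, 30.3, 10.5 and 45.0 FPKM in isolated islets and 0.169, 0.702, 0 and 0 FPKM in day 60 grafts. In all 3 the islet values were lowest in replicate 1, next in 3 and highest in 4, the order of the summed acinar markers (10978, 94487, 24288 and 122709 FPKM). Klk1b4 and Erp27 passed the filter through the islets alone. The kallikreins Klk1b3, Klk1b24 and Klk1b21, the serpin Serpini2, the aquaporin Aqp12 and the hepcidin gene Hamp2 were on the list too, with log2 changes from -4.52 to -2.93. Kallikreins are near-identical copies, so their shares of reads are uncertain. Npy, described with the peptide genes, had that order as well, while Trib3, Elf3, Lcn2 and Cldn4 did not. The pseudokinase gene Trib3, a brake on AKT that stress induces, stood at 4.37, 36.6, 37.8 and 37.8 FPKM in isolated islets and 1.51, 0.895, 0.403 and 0.615 FPKM in day 60 grafts. It was high in isolated islet replicates 2 to 4 and at 4.37 FPKM in replicate 1, which was still above every graft. The epithelial transcription factor gene Elf3 stood at 55.9, 31.2, 26.9 and 27.8 FPKM in isolated islets and 1.68, 2.99, 3.48 and 6.35 FPKM in day 60 grafts, highest in the first islet library. The siderophore-binding lipocalin gene Lcn2 stood at 46.6, 25.6, 12.3 and 12.4 FPKM in isolated islets and 7.32, 0.695, 0.510 and 0.618 FPKM in day 60 grafts. The log2 changes were -3.01 in Elf3 (adjusted p = 0.000814) and -3.17 in Lcn2 (0.00664), or -3.76 without graft 1, the graft in which it was highest. Hipk3 also met the rule, but it is listed at 0 in grafts 2 and 4 and at 15.5 and 16.7 FPKM in the others, and since such a 0 can be a failed estimate no change is given for it.

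Among lists with 10 or more tested members the highest share of falls was in genes of cell contacts. Tight junctions seal neighbouring epithelial cells and are built from claudins and occludin, and cadherins and nectins hold the cells together beneath them. Of the claudin and tight junction list, 10 of 20 tested genes were lower and 2 higher, against 8.92% lower and 23.2% higher of all genes. As 1 of the 20 passed the filter only through the islets and 1 only through the grafts, the count is a description. Without graft 1, 10 were lower and 5 higher, and 10 were lower under 3 scalings and 6 under endocrine reference scaling. Of the cadherins and nectins 4 of 12 were lower, or 3 without graft 1, and none higher.

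Cldn4, a claudin of simple epithelia, stood at 95.0, 375, 242 and 284 FPKM in isolated islets and 5.91, 8.55, 14.6 and 23.7 FPKM in day 60 grafts. Every islet library lay far above every graft, and the log2 change was -4.15 (SE 0.48, adjusted p = 0.00104). Cldn23 stood at 6.43, 8.85, 8.90 and 6.91 FPKM in isolated islets and 0.308, 0.776, 0.954 and 0.893 FPKM in day 60 grafts, with all grafts under 1 FPKM, so that it passed the filter through the islets alone, and its log2 change was -2.35. The occludin gene Ocln stood at 9.71, 16.982, 14.9 and 14.5 FPKM in isolated islets and 0.784, 2.74, 2.57 and 2.42 FPKM in day 60 grafts. Cldn3 stood at 47.0, 49.2, 33.0 and 41.3 FPKM in isolated islets and 4.84, 5.75, 9.45 and 13.9 FPKM in day 60 grafts. Cldn7 stood at 43.0, 86.0, 86.6 and 78.3 FPKM in isolated islets and 7.32, 9.51, 13.4 and 21.3 FPKM in day 60 grafts. In each of these 5 genes the groups did not overlap and the lowest value of all belonged to graft 1, the graft with the lowest endocrine reference level (78.6 FPKM on average, against 184 to 302 in the other grafts and 190.3 to 256 in islets). Their log2 changes without it ran from -3.86 in Cldn4 to -2.05 in Ocln. All 5 kept their call, which for Cldn23 is a description. The E-cadherin gene Cdh1 stood at 83.4, 191, 189 and 165 FPKM in isolated islets and 13.5, 28.1, 45.0 and 50.9 FPKM in day 60 grafts and fell by 2.25 on the log2 scale (adjusted p = 0.00656), with a change of -1.87 without graft 1. The nectin genes Pvrl2 and Pvr fell too (-1.11 and -1.01). The N-cadherin gene Cdh2, at 27.8, 23.9, 26.2 and 22.9 FPKM in isolated islets and 7.55, 16.7, 19.4 and 28.7 FPKM in day 60 grafts, did not pass (adjusted p = 0.195).

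Markers of pancreatic duct, another epithelium rich in claudins, fell beside them: 6 of 9 tested were lower, their sum was 813 to 1160.5 FPKM in islets and 160 to 372 in grafts, and none of the defining genes Krt19, Sox9 and Krt7 was at 0 in all libraries of a group. The acinar sums given above moved the same way between groups. Over the islet libraries Cldn3 had the order of the duct sums (1089, 1160.5, 813 and 985 FPKM), and none of the 5 genes had that of the acinar sums. The part of these cells in the result was not tested. The tight junction genes that rose were Cldn5, the claudin of blood vessels, at 0.336, 0.315, 0.395 and 0.241 FPKM in isolated islets and 25.7, 4.78, 4.84 and 2.87 FPKM in day 60 grafts, and Jam2. Jam2 stood at 5.96, 5.76, 4.96 and 3.92 FPKM in isolated islets and 18.3, 10.9, 9.16 and 13.981 FPKM in day 60 grafts. Cldn5 passed the filter through the grafts alone, so its change is a description. It rose by 2.54 and by 1.94 without graft 1. Of the 18 endothelial markers, to which Cldn5 belongs, 7 were higher, and they summed to 188 to 249 FPKM in islets and 182 to 464 in grafts.

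**Figure D2:**
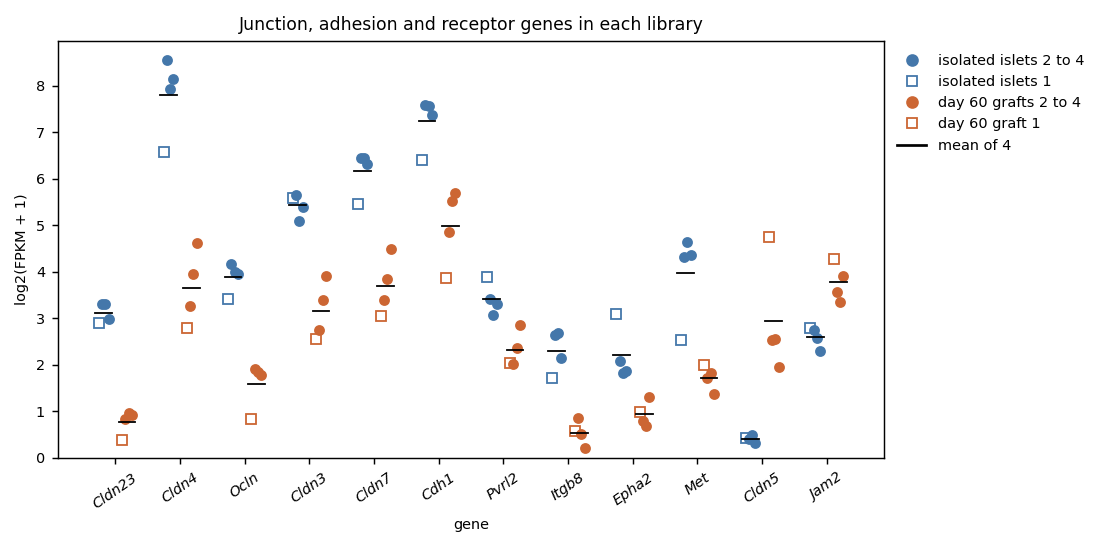
log2(FPKM + 1) of junction, adhesion and receptor genes in each of the 8 libraries (blue, isolated islets; orange, day 60 grafts; open squares, replicate 1; bars, mean of 4). From Cldn23 to Met every graft lies below every islet library, and Cldn5 and Jam2 show the reverse. Islet replicate 1 is the lowest islet for Cldn23, Cldn4, Ocln, Cldn7, Cdh1, Itgb8 and Met.

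Receptors through which cells sense their neighbours and matrix moved in both directions. Met, the receptor of hepatocyte growth factor, stood at 4.79, 19.040, 23.9 and 19.5 FPKM in isolated islets and 3.00, 2.30, 2.51 and 1.57 FPKM in day 60 grafts and fell by 2.24 on the log2 scale (adjusted p = 0.00651). Epha2, a receptor for membrane-bound ephrins, fell by 1.28 (0.0143), while 0 of the other 8 tested ephrin and Eph genes was called. Of the integrins, which bind matrix, 7 of 17 tested were higher and 3 lower, against 23.2% and 8.92% of all genes. As 4 of the 17 passed the filter only through the grafts and 1 only through the islets, this count is a description. Of the lower ones Itgb8 stood at 2.28, 5.22, 5.40 and 3.43 FPKM in isolated islets and 0.482, 0.806, 0.429 and 0.162 FPKM in day 60 grafts. Itgav stood at 20.8, 36.8, 41.9 and 31.8 FPKM in isolated islets and 6.80, 13.8, 11.8 and 7.14 FPKM in day 60 grafts, with every graft below every islet library for both, and Itga3 fell by 0.93. Itgav and Itgb8 encode the chains of one integrin that activates latent TGF-beta. The 5 rises with the smallest p were the leukocyte chains Itgb2 (3.22), Itgb7 (2.21), Itgam (2.07) and Itgax (1.46) and the platelet and macrophage chain Itgb3 (0.91), beside the rise of macrophage markers given above. Itgb1, the most abundant integrin gene here, did not pass (0.33, adjusted p = 0.291).

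Peptide precursor genes changed in opposite directions. Of 27 tested precursors 9 were higher and 4 lower, and 11 higher and 4 lower without graft 1. Shares near these (33.3% and 14.8%) stand not far from the 23.2% and 8.92% of all genes, so the values of single members follow. The median, 0.16, turned to -0.14 when scaled to the sum without hormone and acinar genes. Passing the filter only through one group fixes a difference, and 4 of the 27 passed only through the grafts and 2 only through the islets.

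The cholecystokinin gene Cck stood at 0, 0.317, 0 and 0 FPKM in isolated islets and 11.2, 15.9, 39.8 and 9.01 FPKM in day 60 grafts. It was at 0 or 0.32 FPKM in islets and at 9.01 FPKM or more in every graft. Gast, of the related peptide gastrin, which the developing pancreas makes, stood at 0.649, 0.911, 0.763 and 0 FPKM in isolated islets and 6.30, 15.6, 23.1 and 7.45 FPKM in day 60 grafts, and its 4 grafts kept the rank order of Cck apart from replicates 1 and 4. Both passed the filter through the grafts alone, and the log2 changes were 3.99 and 3.03. The enkephalin precursor gene Penk stood at 1.08, 0.821, 0.873 and 1.21 FPKM in isolated islets and 27.3, 8.71, 12.9 and 30.1 FPKM in day 60 grafts. The dynorphin precursor gene Pdyn stood at 53.4, 28.0, 24.7 and 22.0 FPKM in isolated islets and 69.9, 101.03, 128 and 124 FPKM in day 60 grafts. These opioid peptide genes rose by 3.22 and 1.74 (adjusted p = 0.000804 and 0.00549). Cartpt, which encodes the CART peptide of neurons and islet cells, stood at 1.37, 1.57, 1.37 and 1.39 FPKM in isolated islets and 5.12, 5.44, 15.008 and 8.20 FPKM in day 60 grafts and rose by 1.85.

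Graft 1, the graft with the most fibroblast, fat and macrophage RNA, was the highest of the 4 for none of Cck, Gast, Pdyn and Cartpt. Left out, it raised the log2 changes of all 4, to 4.15, 3.29, 1.92 and 2.02, and lowered that of Penk to 3.02. Iapp, the amylin gene and the most abundant precursor tested, rose by 0.99 (adjusted p = 0.0443), a call that none of the 4 scalings kept, and the glucagon gene Gcg did not pass.

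Neuropeptide Y, made by fetal beta cells and by sympathetic nerves, had its gene Npy at 16.970, 24.2, 18.5 and 26.1 FPKM in isolated islets and 0.186, 1.32, 0.970 and 2.15 FPKM in day 60 grafts. Every graft held at most 2.15 FPKM and every islet library at least 17.0. Vip, which encodes vasoactive intestinal peptide, a transmitter of pancreatic nerve cells, stood at 2.28, 12.9, 8.84 and 11.4 FPKM in isolated islets and 0, 0.455, 0 and 0.404 FPKM in day 60 grafts. The log2 change of Npy was -3.44 (adjusted p = 0.000221) and that of Vip, which passed the filter through the islets alone, -2.85. The vasodilator precursor gene Adm2 fell by 1.38, and the ghrelin gene Ghrl stood at 15.9, 15.6, 16.015 and 13.999 FPKM in isolated islets and 3.33, 1.40, 0.512 and 10.8 FPKM in day 60 grafts, where replicate 4 of the grafts lay near the islets. Schwann cell markers, which mark nerve sheaths, summed to 40.2 to 74.2 FPKM in islets and 61.1 to 121 in grafts, with 3 of 6 tested higher and 1 lower, and their part in these changes was not tested.

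**Figure D3:**
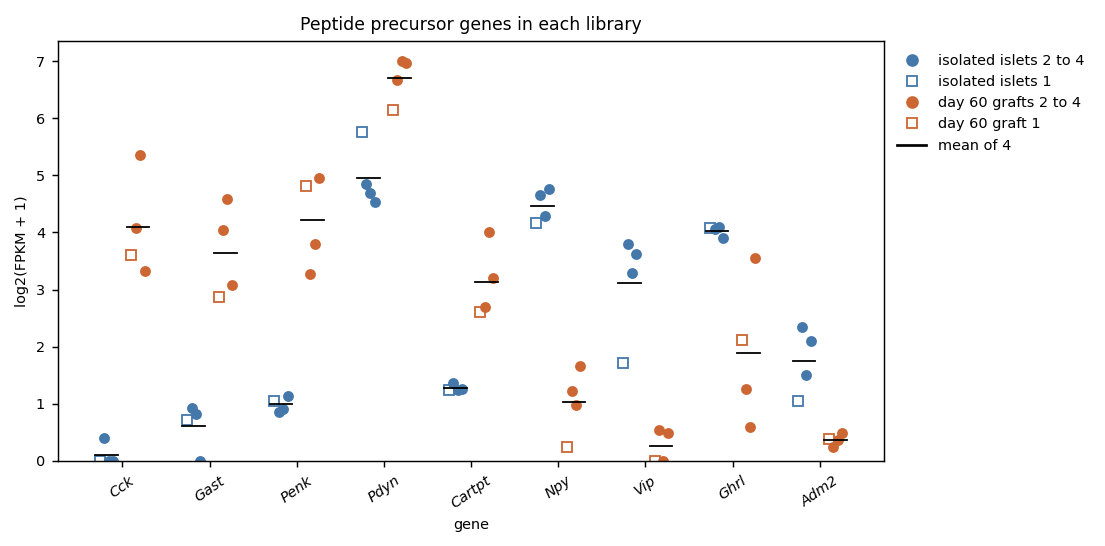
log2(FPKM + 1) of peptide precursor genes in each library (blue, isolated islets; orange, day 60 grafts; open squares, replicate 1; bars, mean of 4). All grafts exceed all islets for Cck, Gast, Penk, Pdyn and Cartpt and lie below all islets for Npy, Vip, Ghrl and Adm2; the open orange squares of graft 1 are never the highest for Cck, Gast, Pdyn and Cartpt.

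Genes that limit growth factor and cytokine signals moved both ways, with more falls than rises. Of the MAP kinase phosphatases and sprouty genes, which switch off ERK, p38 and JNK, 7 of 24 tested were lower (29.2% against 8.92% of all genes) and 3 higher, and the median was -0.16 and turned to 0.12 with endocrine reference scaling. Dusp8, a phosphatase of JNK and p38, stood at 16.7, 31.3, 25.7 and 18.1 FPKM in isolated islets and 2.31, 1.78, 2.25 and 3.45 FPKM in day 60 grafts, and fell by 2.77 on the log2 scale (SE 0.25, adjusted p = 0.000235). Dusp16 stood at 6.68, 9.87, 8.95 and 7.13 FPKM in isolated islets and 3.19, 2.97, 2.52 and 2.04 FPKM in day 60 grafts. Dusp10 stood at 34.0, 26.6, 18.1 and 15.4 FPKM in isolated islets and 9.16, 4.41, 5.24 and 4.50 FPKM in day 60 grafts. In these 3 genes each graft lay below each islet library, and the calls held without graft 1. Dusp4, induced by ERK, fell by 2.33. Dusp1, the most abundant of the list, did not pass: it stood at 136, 22.6, 17.5 and 18.1 FPKM in isolated islets and 122, 10.6, 19.2 and 20.3 FPKM in day 60 grafts, and replicate 1 of either group held over 100 FPKM where the others held 10.6 to 22.6.

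The cytokine pathway of JAK kinases and STAT factors was also split by member. Of 18 tested genes 5 were lower and 4 higher (27.8% and 22.2%, against 8.92% and 23.2% of all genes). Without graft 1, 7 were lower and 4 higher. The feedback inhibitor gene Socs3 stood at 36.8, 27.6, 22.1 and 23.0 FPKM in isolated islets and 13.4, 7.40, 7.35 and 6.55 FPKM in day 60 grafts. Stat3, the factor that drives it, stood at 39.1, 102, 107 and 87.4 FPKM in isolated islets and 24.2, 16.4, 20.4 and 22.9 FPKM in day 60 grafts. The log2 change of Socs3 was -1.57 (adjusted p = 0.00424) and that of Stat3 -1.86 (0.00475). For Stat3 the first islet library lay between the other islets and the grafts. Jak2 and the inhibitor genes Socs6 and Socs7 fell too (-1.04, -0.79 and -1.04), Jak2 with overlap of the groups. The rises were of Tyk2 (1.04), Stat6 (1.26), the factor of interleukin 4 signals, Socs5 (1.31) and Jak3 (0.71), the last under none of the 4 scalings. The interleukin 6 gene itself, Il6, stood at 1.39, 5.10, 2.82 and 2.81 FPKM in isolated islets and 2.51, 0, 0 and 0.0760 FPKM in day 60 grafts and fell by 1.45 (adjusted p = 0.0317) although graft 1 lay within the islet range, and the interleukin 1 receptor gene Il1r1, at 104, 231, 234 and 189.7 FPKM in isolated islets and 33.2, 87.7, 103 and 65.1 FPKM in day 60 grafts, fell by 1.43. Its decoy receptor gene Il1r2 rose by 2.53 beside the macrophage markers. In all, 9 interleukin and receptor genes of 28 tested were higher and 3 lower (32.1% and 10.7%). Their median turned slightly negative (-0.01) under quantile normalization.

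Tnfrsf12a encodes the receptor of the cytokine TWEAK, which injured epithelia display. It stood at 29.3, 70.3, 56.1 and 59.1 FPKM in isolated islets and 11.9, 4.07, 8.44 and 5.86 FPKM in day 60 grafts. The lowest islet library held more than 2 times the highest graft, and the log2 change of -2.69 (SE 0.34, adjusted p = 0.00152) was -2.92 without graft 1. Its ligand gene Tnfsf12 rose by 0.96 (adjusted p = 0.0415), a call lost without graft 1 (0.0597) and under all 4 scalings. Tnfrsf18, which encodes the receptor GITR, stood at 0.812, 0.509, 1.12 and 0.971 FPKM in isolated islets and 3.55, 8.61, 8.80 and 4.22 FPKM in day 60 grafts and rose by 1.90. The urokinase receptor gene Plaur and the tissue factor gene F3, which starts coagulation, fell (-2.06 and -1.47 on the log2 scale). Of 18 coagulation and fibrinolysis genes tested 7 were higher and 3 lower (38.9% and 16.7%, against 23.2% and 8.92% of all genes). The rises were led by F13a1 and Vwf (3.68 and 2.34) and numbered 1 under endocrine reference scaling. Of the 18, 1 passed the filter only through the grafts.

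Of 38 tested p53 target genes 10 were lower and 5 higher (26.3% and 13.2%, against 8.92% and 23.2% of all genes). The stress kinase gene Plk3 stood at 20.7, 33.4, 31.4 and 27.8 FPKM in isolated islets and 4.45, 6.19, 4.59 and 7.66 FPKM in day 60 grafts. The sestrin gene Sesn3, which restrains the growth kinase mTORC1, stood at 18.9, 26.9, 34.1 and 22.3 FPKM in isolated islets and 6.48, 4.19, 7.45 and 4.07 FPKM in day 60 grafts. Perp, a desmosome and death gene, stood at 9.76, 19.5, 16.3 and 20.1 FPKM in isolated islets and 1.27, 3.06, 1.85 and 3.55 FPKM in day 60 grafts. Their log2 changes were -2.13, -2.02 and -2.35 (adjusted p = 0.000612, 0.00134 and 0.00146). The growth-arrest gene Gadd45a and the cell death gene Trp53inp1 fell too (-1.63 and -1.77). Trp53 itself, which encodes p53, rose by 0.79 (adjusted p = 0.0264), a call that 1 of 4 scalings kept, and Pltp, Phlda3, Ddb2 and Ccng1 rose too, with log2 changes from 0.97 to 3.06. The median of the list was -0.17, and 0.09 with endocrine reference scaling, where 2 members stayed lower.

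Forkhead and Kruppel-like factor genes had more falls than rises as well. Of 16 tested forkhead genes 6 were lower and 1 higher, and of 17 KLF and SP genes 6 lower and 1 higher. These are 37.5% and 35.3% lower, against 8.92% of all genes, and 6.25% and 5.88% higher, against 23.2%. Of the 17 KLF and SP genes, 1 passed the filter only through the islets. Foxo3, a factor that insulin signals exclude from the nucleus, fell by 1.07, while Foxo4 rose by 1.26. Klf7 stood at 7.21, 8.78, 10.5 and 8.01 FPKM in isolated islets and 3.08, 2.53, 2.78 and 1.66 FPKM in day 60 grafts. Klf9, a target of glucocorticoids, stood at 33.2, 35.3, 34.2 and 31.8 FPKM in isolated islets and 14.5, 17.9, 14.8 and 14.2 FPKM in day 60 grafts. Both fell without overlap of the groups (-1.46 and -1.09 on the log2 scale). Klf2, the factor of vessel walls under flow, stood at 9.41, 1.09, 0.654 and 0.815 FPKM in isolated islets and 68.1, 12.8, 8.77 and 8.71 FPKM in day 60 grafts and rose by 2.61, with graft 1 far above the others and grafts 3 and 4 below the first islet library. Under endocrine reference scaling none of the forkhead and KLF calls remained, and the medians of both lists were still negative (-0.19 and -0.03).

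**Figure D4:**
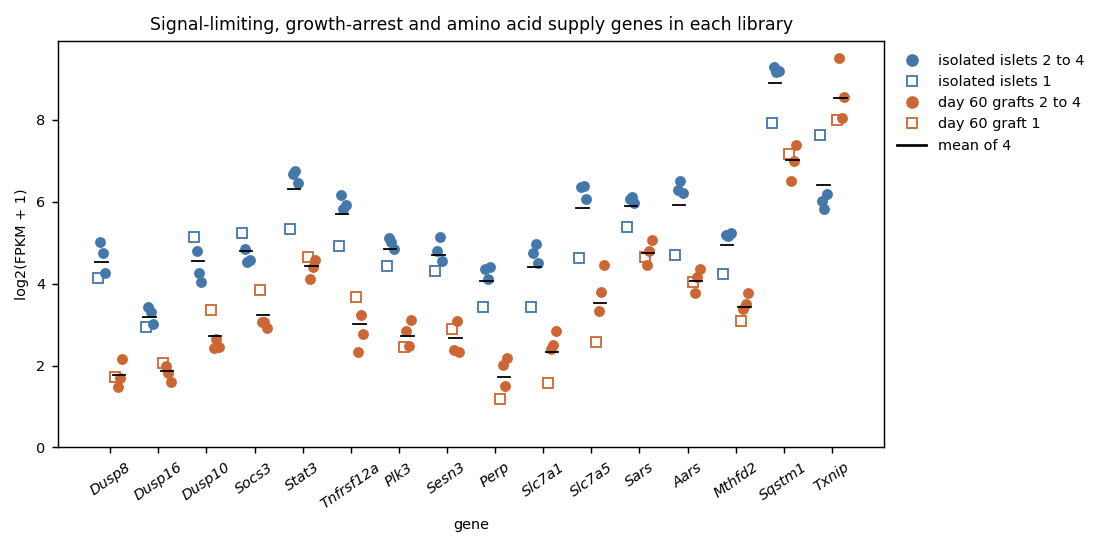
log2(FPKM + 1) of signal-limiting, growth-arrest and amino acid supply genes in each library (blue, isolated islets; orange, day 60 grafts; open squares, replicate 1; bars, mean of 4). Every graft lies below every islet library from Dusp8 to Sqstm1, and all grafts lie above all islets for Txnip. Islet replicate 1 sits between the other islets and the grafts for Stat3, Slc7a1, Slc7a5, Sars, Aars, Mthfd2 and Sqstm1, among others.

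In each of 3 families that supply amino acids more genes fell than rose. Of 24 tested amino acid transporters 7 were lower and 3 higher, of 22 cytosolic tRNA synthetases 7 lower and 2 higher, and of 21 genes of serine, one-carbon and asparagine synthesis 6 lower and 2 higher. These are shares of 28.6% to 31.8% lower, against 8.92% of all genes, with 7, 7 and 6 lower without graft 1, and 2, 0 and 0 lower under endocrine reference scaling, where the median of the synthetases turned to 0.01. Slc7a1, which carries arginine and lysine, stood at 9.71, 25.7, 30.1 and 21.6 FPKM in isolated islets and 1.95, 4.31, 4.67 and 6.18 FPKM in day 60 grafts. Slc7a5, the leucine carrier, stood at 23.7, 80.5, 82.2 and 65.5 FPKM in isolated islets and 4.94, 9.13, 12.8 and 20.8 FPKM in day 60 grafts. Their log2 changes were -2.08 and -2.32 (adjusted p = 0.00577 and 0.00852). Slc38a2, which takes up glutamine when amino acids are short, fell by 1.03.

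Among the synthetases, enzymes that load amino acids on tRNA, Sars stood at 40.9, 65.8, 68.4 and 61.9 FPKM in isolated islets and 24.2, 21.1, 26.6 and 32.2 FPKM in day 60 grafts. Aars stood at 25.1, 77.0, 89.8 and 72.7 FPKM in isolated islets and 15.4, 12.6, 16.8 and 19.4 FPKM in day 60 grafts. In both the isolated islet replicate 1 lay between the grafts and the other islets. Sars, Aars, Yars and Gars fell, with log2 changes of -1.15, -1.85, -1.20 and -1.39, whereas Farsb and Dars rose by 1.10 and 0.92. Mthfd2, the mitochondrial folate enzyme, stood at 17.9, 35.3, 34.6 and 36.7 FPKM in isolated islets and 7.50, 9.39, 10.4 and 12.7 FPKM in day 60 grafts and fell by 1.52 (adjusted p = 0.00516). The folate enzyme genes Aldh1l2 and Mthfd1l, the aspartate aminotransferase gene Got1 and the asparagine synthetase gene Asns fell too (-1.03, -1.12, -1.35 and -1.23). Mat2a, which makes the methyl donor S-adenosylmethionine, went the other way, from 17.1, 10.4, 12.1 and 11.4 to 48.6, 46.4, 36.9 and 25.7 FPKM, and rose by 1.54. Of the transporters, Slc1a5 and Slc7a10 rose by 3.09 and 2.92; Slc7a10 is a transporter of white fat cells, whose markers rose beside it.

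Protein quality genes changed in part. Sqstm1, the autophagy receptor p62, stood at 243, 620.2, 577 and 582 FPKM in isolated islets and 144, 89.6, 128 and 167 FPKM in day 60 grafts. It was the only one of 38 tested autophagy genes called lower (-1.87, adjusted p = 0.00601). The 8 higher ones, led by Atg4a (1.17), are 21.1%, under the 23.2% of all genes, and the counts turned to 2 higher and 4 lower when scaled to the sum without hormone and acinar genes. In mitochondria the protease subunit gene Clpx and the chaperone gene Hspa9 fell (-0.96 and -1.49), Hspa9 from 63.2, 167, 186 and 168 to 61.0, 34.4, 49.6 and 48.4 FPKM, among 35 tested import and chaperone genes with 8 higher and 4 lower, or 2 and 6 under that scaling. The import and chaperone calls, 22.9% higher and 11.4% lower, stood near the 23.2% and 8.92% of all genes. Of 46 proteasome genes 7 were higher and 2 lower (15.2% and 4.35%), under those shares. When scaled to the sum without hormone and acinar genes 3 of them were higher and 5 lower. The translation termination gene Etf1 and the kinase gene Eif2ak3, which senses unfolded protein in the endoplasmic reticulum, were among 11 of 68 translation factors that were lower (-0.90 and -1.31), against 6 higher. These are 16.2% lower and 8.82% higher, against 8.92% and 23.2% of all genes. With endocrine reference scaling none of the factors was called and their median turned from -0.15 to 0.12.

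Folding and glycosylation genes of the endoplasmic reticulum did not move as one. Of 41 N-glycosylation genes 14 were higher and 1 lower, and 19 and 1 without graft 1. The higher ones numbered 5 when scaled to the sum without hormone and acinar genes, 8 under quantile normalization and 1 under endocrine reference scaling. Dolpp1, which recycles the lipid carrier of the sugar chain, stood at 3.33, 3.20, 2.90 and 3.25 FPKM in isolated islets and 7.67, 6.91, 7.64 and 7.92 FPKM in day 60 grafts, with narrow spread in both groups, and rose by 1.03 (SE 0.16, adjusted p = 0.00400). The oligosaccharyltransferase subunit genes Ostc and Ost4 rose by 1.24 and 1.41, and Ostc stood at 128, 90.0, 86.5 and 78.4 FPKM in isolated islets and 226, 206, 261 and 208 FPKM in day 60 grafts. Of 28 disulphide isomerase and oxidase genes 8 were higher, led by Pdia5 (2.18) and Gpx8 (3.30), and 2 lower. These are 28.6% and 7.14%, against 23.2% and 8.92% of all genes. When scaled to the sum without hormone and acinar genes the split was 3 higher and 3 lower. The 2 lower genes were Pdia2 and Erp27, whose islet values had the order of the acinar sums, as described above. Erp27 passed the filter through the islets alone. Hspa5, the central chaperone BiP, and Pdia6, an isomerase that works with it, were chosen after their values were seen, because of their promoters. Hspa5 stood at 1925, 3084, 2671 and 2473 FPKM in isolated islets and 414, 365, 904 and 634 FPKM in day 60 grafts and fell by 2.20 (adjusted p = 0.00321). Pdia6 stood at 169, 152, 141 and 132 FPKM in isolated islets and 196, 204, 285 and 235 FPKM in day 60 grafts and rose by 0.62 (0.0457), or 0.69 without graft 1, a call that none of the 4 scalings kept.

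These are the only called genes whose RefSeq promoter, from 250 bases before to 50 after the start on GRCm38.p6, held an endoplasmic reticulum stress element (CCAAT, then 9 bases, then CCACG, on either strand). That element was in 37 of 27025 genes with a promoter (0.137%) and in 16 of the 9090 tested genes that matched a promoter. Their sites are shown because the same element stood beside opposite changes, with both conserved ends of the element in capitals. Hspa5 is at chr2:34772020-34772048 on the plus strand and Pdia6 at chr12:17266486-17266514 on the plus strand, and the elements begin 65 and 98 bases before the start.
Hspa5: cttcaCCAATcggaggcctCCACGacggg
Pdia6: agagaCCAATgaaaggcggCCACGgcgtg

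The cAMP response element TGACGTCA (a palindrome, so that both strands read alike) was in 549 promoters, 2.03%. It was in 3.67% of promoters of tested genes, 2.79% of those of higher and 4.09% of those of lower genes. Of 486 called list members with a promoter, 9 held it: Cldn7, Dusp8, Epha2 and Rab5a fell, and Atg5, Cartpt, Mrpl49, Ogdh and Trap1 rose, although the call of Ogdh held under 0 of the 4 scalings. The sites of a falling junction gene, a falling phosphatase gene and a rising peptide gene are printed with the element in capitals, for Cldn7 at chr11:69965372-69965401 on the plus strand, Cartpt at chr13:99900777-99900806 on the minus strand and Dusp8, which held 2 copies, at chr7:142095310-142095421 on the minus strand.
Cldn7: tgtcccttcagTGACGTCAggtcactcgac
Cartpt: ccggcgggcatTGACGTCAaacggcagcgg
Dusp8: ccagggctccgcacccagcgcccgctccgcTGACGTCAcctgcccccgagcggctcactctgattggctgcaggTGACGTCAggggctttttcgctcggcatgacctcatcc
The E-box CACGTG was in 8.09% of all promoters, 11.9% of tested genes, 9.90% of higher and 12.1% of lower ones, and the antioxidant element (TGAC, then 3 bases, then GC), on either strand, in 13.99%, 17.3%, 17.1% and 20.4%. The coordinates are those of the RefSeq build and not of the mm9 build named for the expression values.

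Of 38 glutathione, thioredoxin and NRF2 target genes 16 were higher and 1 lower (42.1% higher against 23.2% of all genes), and of 19 glutathione S-transferases 8 higher and 0 lower. When scaled to the sum without hormone and acinar genes the first list had 10 higher and 3 lower and the transferases 5 higher, and under endocrine reference scaling 2 and 1 were higher. Txnip, the glucose-induced inhibitor of thioredoxin, stood at 196, 63.3, 55.2 and 72.5 FPKM in isolated islets and 255, 731, 263 and 377 FPKM in day 60 grafts. The lowest graft, replicate 1, exceeded the highest islet, also replicate 1, and the log2 change was 2.12 (adjusted p = 0.0104) or 2.30 without graft 1. Txnrd1, the thioredoxin reductase gene of the cytosol, stood at 30.1, 61.6, 63.1 and 54.1 FPKM in isolated islets and 19.3, 15.4, 19.007 and 24.1 FPKM in day 60 grafts and was the 1 gene that fell (-1.34, 0.00766). The mitochondrial peroxiredoxin gene Prdx3 stood at 17.2, 7.62, 6.18 and 9.29 FPKM in isolated islets and 56.2, 33.5, 33.3 and 24.8 FPKM in day 60 grafts and rose by 1.81. Gpx8 and Sod3, of extracellular and secretory compartments, rose by 3.30 and 3.76, each with graft 1 far above the other grafts.

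Gsto2 and Gstz1, glutathione transferases that act on dehydroascorbate and on a tyrosine breakdown product, varied less among grafts. Gsto2 stood at 1.47, 1.30, 0.815 and 1.52 FPKM in isolated islets and 3.90, 10.9, 9.49 and 7.92 FPKM in day 60 grafts, lowest of the grafts in replicate 1. Gstz1 stood at 79.1, 40.8, 31.9 and 31.1 FPKM in isolated islets and 237, 128, 169 and 126 FPKM in day 60 grafts, highest in it. They rose by 1.93 and 1.89 (adjusted p = 0.00321 and 0.00537). Mgst1 rose by 4.16 with 575 FPKM in graft 1 and 22.8 to 163 in the others. Of 17 tested retinoid genes 8 were higher (47.1%, against 23.2% of all genes) and 0 lower. Under endocrine reference scaling 2 were higher. Among them Aldh1a3, which makes retinoic acid, led with a log2 change of 4.46 and 4.71 without graft 1.

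Iron genes moved both ways. The export channel gene Slc40a1 (ferroportin) stood at 5.26, 1.99, 3.26 and 2.34 FPKM in isolated islets and 18.7, 9.85, 13.9 and 14.7 FPKM in day 60 grafts. The transferrin receptor gene Tfrc, which takes iron in, stood at 16.8, 21.8, 26.6 and 22.0 FPKM in isolated islets and 5.94, 12.6, 5.83 and 4.58 FPKM in day 60 grafts. Slc40a1 rose by 1.89 (adjusted p = 0.00294) and Tfrc fell by 1.54 (0.00610), with no overlap of the groups in either. The transferrin gene Trf rose by 4.43 and the macrophage transporter gene Slc11a1 by 2.50. In all, 9 of 22 tested were higher and 3, Tfrc, Lcn2 and Ireb2, lower. These are 40.9% and 13.6%, against 23.2% and 8.92% of all genes. Of the 22, 1 passed the filter only through the grafts. Under endocrine reference scaling 3 were higher and 0 lower. The ferritin genes Fth1 and Ftl1 did not pass (adjusted p = 0.0929 and 0.316).

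Of 32 fatty acid oxidation genes 14 were higher (43.8%, against 23.2% of all genes) and 1 lower. The rises were led by Acad11 (1.82) and Etfb (1.56), beside the rise of adipocyte markers. Under endocrine reference scaling none of the 32 was called, although their median was 1.16, against 0.88 as deposited. Of 76 mitochondrial ribosomal protein genes 28 were higher and 0 lower, and of 76 cytosolic ones 32 and 0. The medians were 0.58 and 0.90, against 0.25 for all genes. With scaling to the sum without hormone and acinar genes 8 were higher in each and 2 and 0 lower. The medians stayed above 0 under every scaling. With endocrine reference scaling none was called, although the medians were then larger, 0.86 and 1.19. Mrpl42 stood at 40.9, 18.7, 16.6 and 16.4 FPKM in isolated islets and 161, 70.9, 94.1 and 56.7 FPKM in day 60 grafts and rose by 2.00 (adjusted p = 0.00674). Of 36 citric acid cycle genes 6 were higher (16.7%, under the 23.2% of all genes) and 0 lower. Without graft 1, 2 were higher, of which only 1 was among the 6. When scaled to the sum without hormone and acinar genes 0 were higher and 2 lower.

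Cilium and cytoskeletal genes changed in part. Of 56 cilium and intraflagellar transport genes 8 were higher and 0 lower, below the 23.2% of all genes. Quantile normalization of all 8 libraries turned these counts to 3 higher and 4 lower. Without graft 1, as deposited, 15 were higher, which is near its background of 28.8%. Ift20 stood at 70.1, 35.5, 36.7 and 38.5 FPKM in isolated islets and 109.7, 107, 134 and 109 FPKM in day 60 grafts, all grafts above all islets, and rose by 1.38 (adjusted p = 0.00564). Of 41 actin, tropomyosin and myosin genes 13 were higher and 6 lower (31.7% and 14.6%, against 23.2% and 8.92% of all genes). Quantile normalization gave 11 and 11. The cytoplasmic actin gene Actg1 stood at 881, 1298, 953 and 889.5 FPKM in isolated islets and 485, 155, 268 and 305 FPKM in day 60 grafts and fell by 1.82 (adjusted p = 0.00648), and the nonmuscle myosin gene Myh14, of epithelia, fell by 1.30. The intermediate filament gene Vim, of fibroblasts and macrophages, stood at 12.3, 17.8, 11.8 and 11.2 FPKM in isolated islets and 809, 144, 239 and 86.9 FPKM in day 60 grafts and rose by 3.99, highest in graft 1.

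Complement genes, of secreted defence proteins, had the highest share of rises among lists with 10 or more tested members. Of 21 tested complement genes 20 were higher and 1 lower, against 23.2% and 8.92% of all genes. Without graft 1 the counts were the same. The median was 2.82, and 17 to 20 were higher under 3 scalings and 6 under endocrine reference scaling. As 3 of the 21 passed the filter only through the grafts, these counts are descriptions. C7, of the membrane attack complex, stood at 1.04, 1.37, 1.07 and 0.932 FPKM in isolated islets and 48.9, 14.5, 11.5 and 35.1 FPKM in day 60 grafts. Over grafts 1 to 4 it had the order of the endothelial marker sums (464, 192, 182 and 359 FPKM), whose part was not tested. With 4 grafts and many marker lists, an order can match by chance. C7 rose by 3.53 (adjusted p = 0.000961). C1s, Cfp and C4b rose by 3.14, 3.63 and 3.89. Clu, the clusterin gene, stood at 362, 339, 187 and 413 FPKM in isolated islets and 57.9, 48.9, 61.8 and 88.5 FPKM in day 60 grafts and was the one that fell (-2.30, 0.00154). Of 24 C-type lectins and scavenger receptors 20 were higher and 1, Scarb2 of lysosomes, lower, but 12 of the 24 passed the filter only through the grafts, so that this count is a description. Clec7a, the receptor of fungal glucans on macrophages, stood at 0.826, 1.29, 0.324 and 0.493 FPKM in isolated islets and 31.6, 9.64, 13.3 and 10.7 FPKM in day 60 grafts.

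Lipid mediator genes rose in 8 of 16 tested and fell in 0, against 23.2% and 8.92% of all genes. The counts were 8 and 0 without graft 1 and 4 and 0 under endocrine reference scaling. As 3 of the 16 passed the filter only through the grafts, these counts are descriptions. Ptges, the prostaglandin E synthase, stood at 3.24, 1.44, 0.918 and 0.975 FPKM in isolated islets and 9.82, 9.41, 14.3 and 9.20 FPKM in day 60 grafts. It was highest in graft 3 and rose by 2.20 (adjusted p = 0.00154). The macrophage lipase gene Pla2g2d and the leukotriene genes Alox5ap and Ltc4s rose by 1.94, 3.00 and 3.89, and the prostaglandin-degrading enzyme gene Hpgd by 3.21. Of 12 S100 genes 8 were higher (2 under endocrine reference scaling) and 0 lower. S100a8 stood at 0 in every islet library and at 106, 23.2, 19.3 and 9.94 FPKM in grafts. Of 17 annexins and galectins 7 were higher, led by Lgals12 (2.44) of fat cells and Lgals1 (4.99), and 0 lower. These are 66.7% and 41.2% higher, against 23.2% of all genes. As 2 of the 12 and 1 of the 17 passed the filter only through the grafts, these counts are descriptions. The purine receptor gene P2rx4 stood at 14.4, 8.91, 8.46 and 7.67 FPKM in isolated islets and 44.9, 23.2, 27.1 and 31.7 FPKM in day 60 grafts and rose by 1.59.

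HOX genes give cells their place along the body axis. All 39 members were at most 1.003 FPKM in every islet library, and the highest graft value was 24.9 FPKM. Only Hoxc8 and Hoxc6 passed the filter, and only through the grafts: Hoxc8 stood at 0.174, 0.105, 0.103 and 0.121 FPKM in isolated islets and 24.9, 3.53, 8.93 and 1.57 FPKM in day 60 grafts. Hoxc6 stood at 0, 0, 0 and 0 FPKM in isolated islets and 12.043, 1.30, 5.90 and 1.25 FPKM in day 60 grafts. Of 10 tested mesenchymal T-box and homeobox genes 7 were higher, against 23.2% of all genes. As 6 of the 10 passed the filter only through the grafts, this count is a description. Prrx1, of connective tissue, stood at 0.377, 0.599, 0.553 and 0.701 FPKM in isolated islets and 23.1, 6.24, 8.81 and 6.29 FPKM in day 60 grafts. Meox2 stood at 0.114, 0.285, 0.134 and 0 FPKM in isolated islets and 7.59, 3.08, 2.08 and 1.65 FPKM in day 60 grafts, and both were highest in graft 1.

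Among signalling families, the list of secreted WNT antagonists had 4 of 8 tested higher, against 23.2% of all genes, but 4 of the 8 passed the filter only through the grafts, so that this count is a description. The higher ones were Sfrp2, Sfrp4, Dkk2 and Sfrp1, with log2 changes of 5.08, 3.68, 1.61 and 2.12. Frzb, a member made in islets, did not pass (-0.59, adjusted p = 0.208), and neither did Wnt4, the 1 WNT ligand tested, at 42.8, 61.3, 60.3 and 47.3 FPKM in isolated islets and 11.1, 31.4, 37.8 and 58.2 FPKM in day 60 grafts. The BMP-related gene Gdf10 stood at 1.20, 1.19, 0.748 and 0.823 FPKM in isolated islets and 16.9, 8.35, 6.82 and 46.3 FPKM in day 60 grafts, highest in graft 4, and rose by 2.99 (adjusted p = 0.00426). Inha, an inhibin subunit gene, stood at 23.2, 21.5, 18.1 and 21.4 FPKM in isolated islets and 6.19, 83.8, 60.3 and 56.3 FPKM in day 60 grafts. It did not pass with all libraries (0.364) and did without graft 1 (1.60, 0.000494), the graft that lay below every islet. Fgf1 stood at 2.44, 2.08, 1.64 and 1.54 FPKM in isolated islets and 8.29, 6.67, 8.08 and 6.96 FPKM in day 60 grafts, with grafts close together, and rose by 1.55 (adjusted p = 0.00132), and Bmpr2, a BMP receptor, fell by 1.34. The axon guidance receptor genes Neo1, Robo1 and Robo2 fell (-1.08, -1.06 and -1.37), while the netrin relative Ntng2 rose by 1.52. The water channel gene Aqp1, of vessels and red cells, stood at 2.04, 3.46, 2.02 and 2.74 FPKM in isolated islets and 95.2, 27.1, 24.0 and 26.2 FPKM in day 60 grafts. Aqp4 stood at 2.49, 0.563, 0.589 and 0.808 FPKM in isolated islets and 2.08, 13.6, 11.1 and 5.71 FPKM in day 60 grafts, the latter lowest of the grafts in replicate 1. Gjd2, the connexin that couples beta cells, fell by 1.16 (adjusted p = 0.0256).

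Leaving out graft 1 made most rises smaller and some larger. Over the 1942 tested genes of all gene and marker lists, 735 were called both with and without graft 1, 38 only with it and 127 only without it, and none of these called genes changed sign. Of the 527 rises called both ways 453 were smaller without graft 1. The 74 others include Cck, Gast, Pdyn, Cartpt, Iapp, Serpina7, Aldh1a3, Txnip, Aqp4, Tnfrsf18, Gsto2, Apoa2 and Pdia5. Serpina7, which encodes thyroxine-binding globulin, stood at 3.63, 2.52, 1.87 and 1.35 FPKM in isolated islets and 17.7, 51.1, 48.4 and 31.5 FPKM in day 60 grafts. Apoa2, an apolipoprotein of high-density lipoprotein, stood at 3.60, 4.09, 1.81 and 2.76 FPKM in isolated islets and 7.59, 14.5, 15.9 and 12.4 FPKM in day 60 grafts; both were lowest of the grafts in replicate 1.

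**Figure D5:**
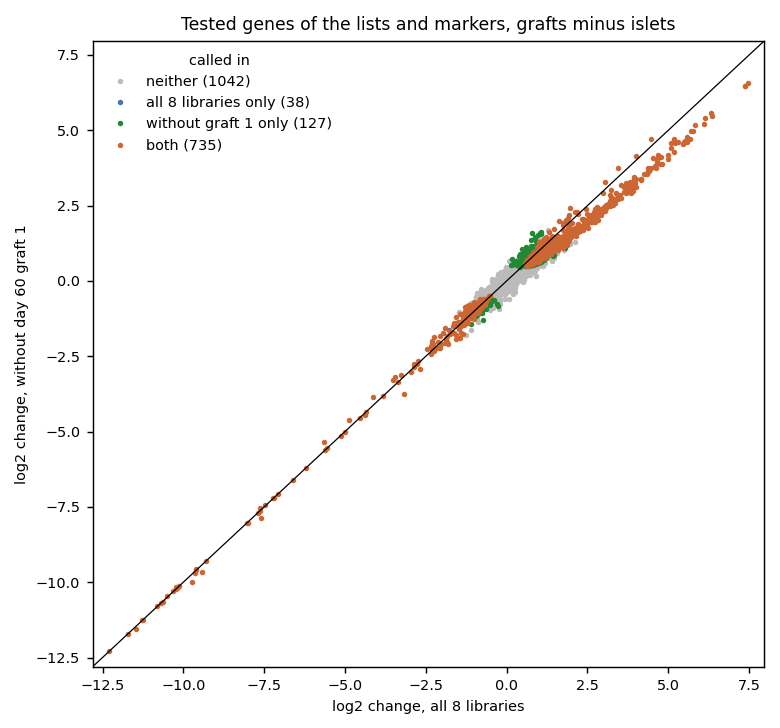
log2 change (grafts minus islets) of each tested gene of the gene and marker lists with all 8 libraries (x axis) and without day 60 graft replicate 1 (y axis), coloured by where it was called; the line marks equal values. Of the 527 rises called both ways 453 lie below the line, and the 208 falls called both ways lie near it on either side (110 of them smaller without graft 1).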

How the data were processed

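Total RNA of 8 libraries (4 isolated islets, 4 grafts of day 60) was analysed. FPKM values per gene were deposited by the authors, made with TopHat2 and Cufflinks 2.1.1 on mm9, per the submitters' processing notes; the table holds no counts, so read depth is unknown and no counting interval can be given. Here genes with 1 FPKM or more in 4 or more libraries were tested on log2(FPKM + 1) with limma 3.58.1 in R 4.3.3 (group as the only term, intensity trend, robust), with Benjamini-Hochberg adjustment over all tested genes, and the script was tested on simulated data. The members and lists were chosen with earlier results of these data known. Genes were named as the 15 largest changes each way without overlap of the groups, the first called genes of each list by p (up to 5 each way) and its 2 highest by level; genes named for a promoter motif were chosen after their values were seen. Alternatives were 4 scalings, pseudocounts of 0.1 and 5, filters, all 12 libraries, a replicate block, array weights and leaving out libraries. Bclaf1, Hipk3, Ins1, Per1 and Sept7 are listed at 0 beside over 10 FPKM within a group, which can be a failed estimate, and are given no change. Some genes that met the naming rule are not reported here.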

Additional observations from a re-analysis of the deposited data

Results flagged for a closer look

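In 22 of the 170 groups of 4 values given gene by gene, 1 library stood far from the other 3 by Dixon's criterion; chance gives about 1 in 20 groups, and the genes were not picked at random. Isolated islet replicate 1 was that library in 11 of them and graft replicate 1 in 6. In isolated islet 1 the low values were 25.1 FPKM of Aars, 43.0 of Cldn7, 63.2 of Hspa9, 4.79 of Met, 17.9 of Mthfd2, 242.6 of Sqstm1 and 4.37 of Trib3, and the high ones 135.6 of Dusp1, 70.1 of Ift20, 9.41 of Klf2 and 40.9 of Mrpl42. In 10 of the 11 the outlying value lay toward the grafts. In Dusp1 the groups overlapped and graft 1 was high as well. In graft 1 the outlying values were 95.2 FPKM of Aqp1, 2.51 of Il6, 7.32 of Lcn2, 13.4 of Socs3, all high, and 6.19 of Inha and 0.784 of Ocln, both low. The others were 1.57 FPKM of Cartpt and 0.317 of Cck in isolated islet 2, 0.312 of Ccl8 in isolated islet 3, and 133.6 of Ift20 and 14.3 of Ptges in graft 3.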

How the results depend on the processing

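The count of higher genes was 2975 and of lower genes 1145. Scaling to the sum without hormone and acinar genes gave 1538 and 1988, quantile normalization 1734 and 2117, endocrine reference scaling 435 and 149, and upper-quartile scaling 2309 and 1536. A minimum of 5 FPKM gave 1640 and 879, and array weights 6580 and 2901, a fit whose weights (0.142 to 8.57) did not converge. Without isolated islet 1 and graft 1 together the counts were 5218 and 2026. Leaving out 1 library gave 1283 to 3863 higher and 473 to 1551 lower; without islets 2, 3 and 4 they were 1283 and 475, 1287 and 473, and 1314 and 588, and without graft 3 they were 1754 and 698. The cause was not tested. The labels do not say whether replicate numbers pair the samples. Correlations of same-numbered deviations ran from -0.0625 to 0.0220, within the -0.145 to 0.124 of unlike-numbered ones. These values cannot show whether islet preparations were shared. The replicate block gave 2511 and 1031. The pseudocounts, no filter and all 12 libraries stayed within 1.5 times. Of 196 named called genes 81 kept their call under every setting that tested them, 159 under every setting but endocrine reference scaling, and none reversed. Read depth is unknown, so no count of 0 could be given a limit.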

Other observations

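In 4 families not yet described more genes rose than fell, where 23.2% of all genes rose. Of 44 tested lysosomal hydrolase genes 17 were higher and 0 lower, led by the cathepsin genes Ctsk, Ctsh and Ctss (4.15, 3.07 and 2.70), and 1 under endocrine reference scaling. Of 21 collagen-modifying genes 17 were higher, led by Pcolce (3.81) and Fkbp14 (1.04), beside the fibroblast markers, and 3 under endocrine reference scaling. Of 21 cytochrome P450 genes 12 were higher, led by Cyp27a1 (2.34), the sterol hydroxylase of mitochondria, and Cyp1b1 (1.15), and Cyp4f39 was lower (-1.37). Under quantile normalization 6 were higher and under endocrine reference scaling 1. Of 19 toll-like receptor and adaptor genes 8 were higher and 1 lower, beside the macrophage markers, and under endocrine reference scaling none was called. In each of the last 3 families 4 members passed the filter only through the grafts, so that these counts are descriptions.

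Other families stayed near or under the shares of all genes. SR proteins and hnRNPs, which splice RNA, had 2 of 47 tested genes called higher and 2 lower, COPI and COPII coat genes 4 of 45 tested genes called higher and 2 lower, and Rab GTPases, which steer vesicles, 5 of 48 tested genes called higher and 4 lower. Their medians were 0.01, 0.00 and 0.08, and all 3 turned negative under 3 of the 4 scalings. Among 50 ribosome biogenesis genes 6 were higher and 6 lower, and Myc, the growth factor-induced regulator of that process, fell by 1.21 (adjusted p = 0.0116).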
